A study of Mus musculus with 6 samples.

Results

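The interferon-induced GTPases studied here are 9 mouse genes of 2 related families, the guanylate-binding proteins Gbp2, Gbp3, Gbp6 and Gbp7 and the immunity-related GTPases Irgm1, Irgm2, Igtp, Ifi47 and Iigp1. They were chosen by gene symbol, and each is represented by the probe set annotated to that gene alone with the highest mean over 6 arrays. All 9 were measured, by 13 probe sets, among 18192 genes represented in the same way. The arrays compared lineage-negative haematopoietic progenitors, bone marrow cells depleted of mature blood cells, sorted for or against a vector carrying EVI1, the DNA-binding oncoprotein that the Mecom gene encodes.

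The cells came from C57BL/6J mice whose Rosa26 locus carries a doxycycline-responsive transactivator (Rosa26rtTA). The labels give no age for the mice. The culture medium held 50 ng/ml each of stem cell factor, Flt3 ligand and interleukin-11, with 20 ng/ml of interleukin-3. By the design text, doxycycline (1 µg/ml) was given to the culture from which both groups were sorted 20 hours later. In the EGFP-positive group (3 arrays) the source label names transduction with the plasmid pRRL.TET.EVI1.IRES.EGFP, a vector that expresses EVI1 and the fluorescent protein EGFP under doxycycline. These cells were sorted for high EGFP, although their sample description reads untransduced. The EGFP-negative group (3 arrays) is named untransduced in the sample labels, whereas the design text describes a sort of negative or low EGFP cells from the transduced culture. No sample with an EGFP-only vector was analysed here, so EVI1, EGFP, transduction itself and the sort cannot be told apart. Whether the 3 replicates of a group are separate cultures or animals is not labelled, so the p-values measure the scatter among these samples alone, and that scatter may be technical.

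Both families are GTPases that cells make in quantity after interferon binds its receptors. Interferon receptors signal through the JAK kinases to transcription factors that act at DNA elements called GAS and the interferon-stimulated response element (ISRE). STAT2 with IRF9, and also IRF1, act at the ISRE. Guanylate-binding proteins assemble on intracellular bacteria and on the vacuoles of parasites and promote inflammasome activation. Among the immunity-related GTPases, Irgm1, Irgm2 and Igtp regulate the others and protect the cell's own membranes, while Ifi47 and Iigp1 are of the effector type that coats pathogen vacuoles. In the blood system Irgm1 is also known from knockout mice for its part in the maintenance of stem cells under interferon.

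Because the 9 genes belong to families known to be induced by interferon, their promoters were examined for these elements. Genes chosen in this way may hold such elements whatever the arrays showed. Whether the elements have a part in the array differences was not tested. RefSeq promoter windows (mouse assembly GRCm38.p6, 250 bases before to 50 after each annotated start site) were found for 7 of the 9 genes, with 8 windows, since Gbp3 has 2. Matches to GAAA, any 2 bases and again GAAA, here called ISRE-like, and to TTC, any 3 bases and GAA, called GAS-like, were searched on both strands. The 150 bases before the start site are printed 5′ to 3′ on the gene's strand, with matches in capitals, to let the members be compared. The stretches are chr3:142620513-142620662 (+) for Gbp2, chr3:142559894-142560043 (+) for the first Gbp3 window and chr3:142530186-142530335 (+) for Gbp7. The others are chr11:48871421-48871570 (-) for Irgm1, chr11:58214827-58214976 (+) for Irgm2, chr11:58199406-58199555 (+) for Igtp and chr11:49076437-49076586 (+) for Ifi47.
Gbp2: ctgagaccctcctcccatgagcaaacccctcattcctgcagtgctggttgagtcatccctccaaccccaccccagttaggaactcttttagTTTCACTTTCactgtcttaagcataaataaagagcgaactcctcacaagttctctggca
Gbp3: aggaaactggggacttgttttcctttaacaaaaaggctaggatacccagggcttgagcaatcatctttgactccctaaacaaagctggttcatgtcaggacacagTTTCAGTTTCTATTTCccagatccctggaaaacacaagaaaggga
Gbp7: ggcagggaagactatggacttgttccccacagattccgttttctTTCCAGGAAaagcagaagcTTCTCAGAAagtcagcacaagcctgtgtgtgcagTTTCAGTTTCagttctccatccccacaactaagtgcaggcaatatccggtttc
Irgm1: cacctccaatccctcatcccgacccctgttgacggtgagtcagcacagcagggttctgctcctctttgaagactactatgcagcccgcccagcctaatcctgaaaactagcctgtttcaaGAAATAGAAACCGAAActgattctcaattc
Irgm2: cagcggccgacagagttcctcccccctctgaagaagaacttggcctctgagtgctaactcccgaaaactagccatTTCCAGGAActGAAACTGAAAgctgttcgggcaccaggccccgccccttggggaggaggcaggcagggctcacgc
Igtp: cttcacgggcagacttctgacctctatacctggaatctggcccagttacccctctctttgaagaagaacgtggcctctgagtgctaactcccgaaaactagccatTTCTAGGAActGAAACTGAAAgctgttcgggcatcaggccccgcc
Ifi47: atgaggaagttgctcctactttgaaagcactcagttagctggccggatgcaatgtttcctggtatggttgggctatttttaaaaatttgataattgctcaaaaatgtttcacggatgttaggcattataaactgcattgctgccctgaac

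An ISRE-like match lay in 6 of the 8 member windows, those of Gbp2, Gbp3 (first window), Gbp7, Irgm1, Irgm2 and Igtp, compared with 3.44% of all 32851 promoter windows of the same length. In Gbp3 and Irgm1 a pair of overlapping matches was found. All of these matches lay close to the start site, from base -64 in Irgm2 to base -15 in Irgm1. A GAS-like match lay in 3 of the 8 windows, those of Gbp7 (2 matches), Irgm2 and Igtp, compared with 8.30% of all windows. In Irgm2 and Igtp the GAS-like match stood just before the ISRE-like match, TTCCAGGAA at bases -75 to -67 in Irgm2 and TTCTAGGAA at bases -45 to -37 in Igtp, and 149 of 32851 windows (0.454%) held both motifs. The windows of Irgm2 and Igtp, which lie beside each other on chromosome 11, were identical at 244 of 270 aligned positions (90.4%), so they are not independent examples. Neither motif was found in the window of Ifi47 or the second window of Gbp3. A match is a stretch of letters and does not show that a factor binds there.

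**Figure D1:**
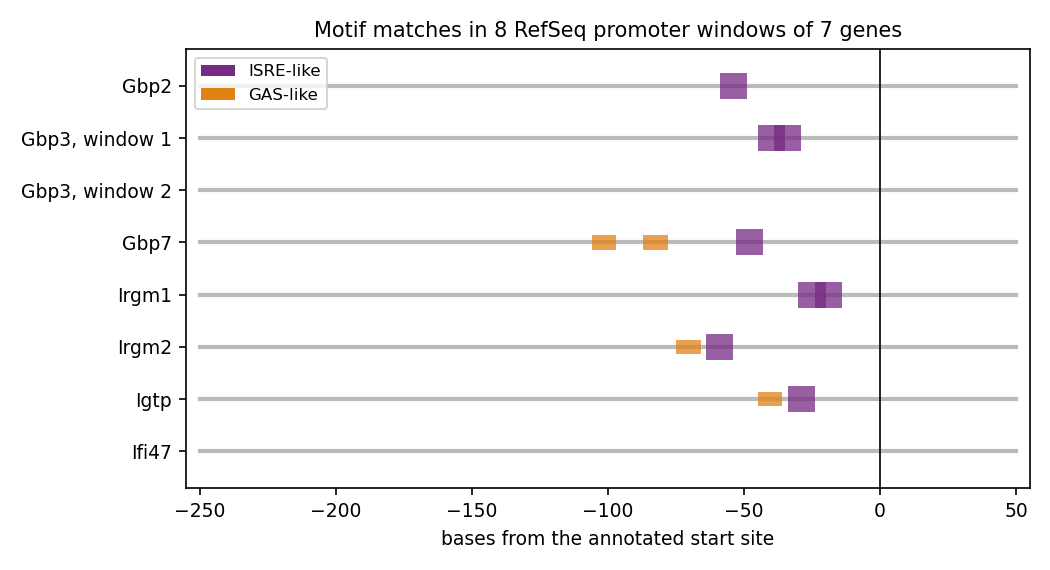
Positions of ISRE-like (purple) and GAS-like (orange) matches in 8 promoter windows of 7 genes, in bases from the annotated start site at 0; grey lines span the window searched. The ISRE-like matches lie between bases -64 and -15, and the windows of Ifi47 and the second of Gbp3 hold no match.

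All 9 GTPase genes were higher in EGFP-positive cells, by 0.53 to 2.00 on the log2 scale (limma, Benjamini-Hochberg adjusted p under 0.05 over all genes for each), and 5 of them, Gbp2, Gbp3, Gbp6, Irgm2 and Iigp1, were at least 2-fold higher. Their median difference was 1.41, beside 0.02 for all genes. Over all genes 33.2% passed the threshold, 16.0% higher and 17.2% lower, and 5.95% were both called higher and at least 2-fold higher. For each of the 9 genes the lowest EGFP-positive array lay above the highest EGFP-negative array, which held for 23.8% of all genes. Each array measured a whole sorted fraction, so more expressing cells and more RNA per cell cannot be told apart.

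**Figure D2:**
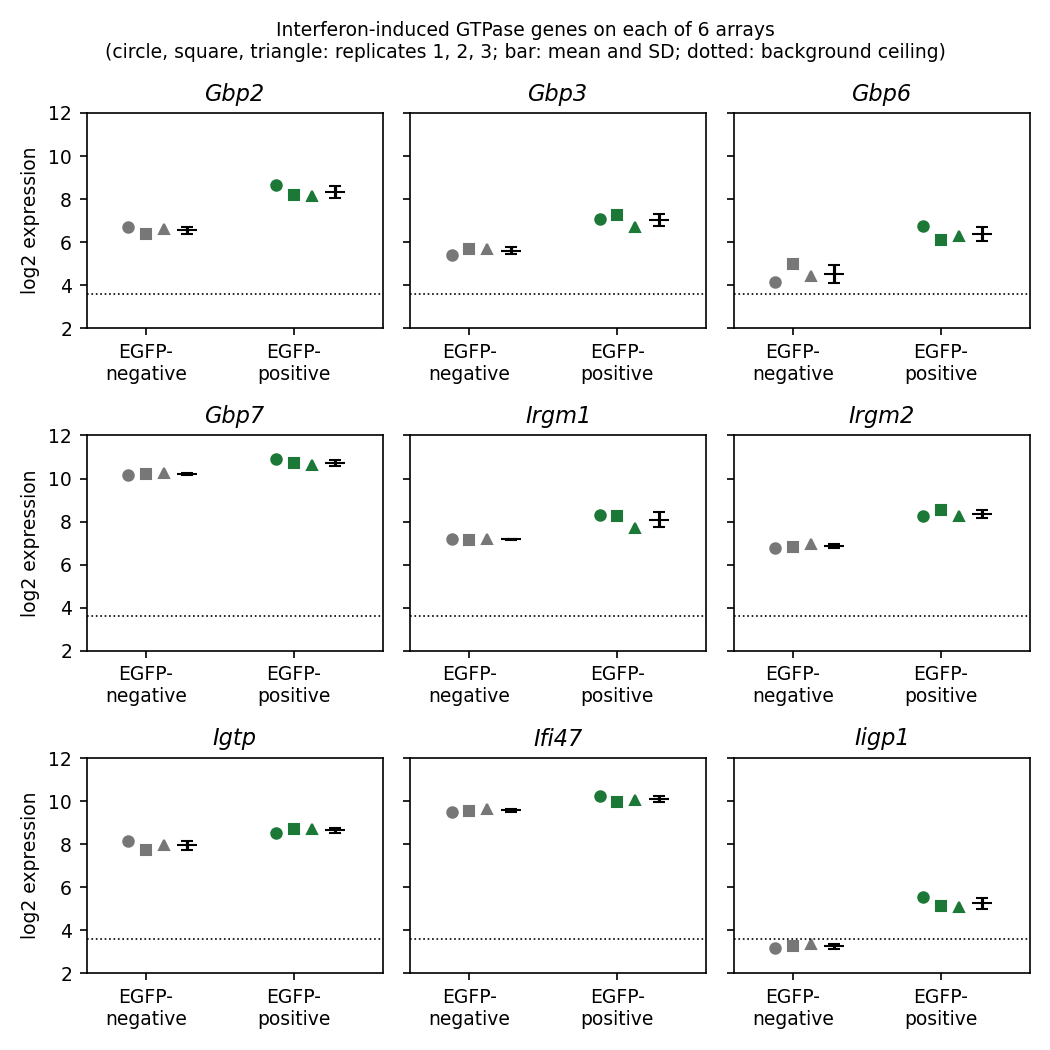
Log2 expression of the 9 genes on each of the 3 EGFP-negative (grey) and 3 EGFP-positive (green) arrays, with the group mean and SD; the dotted line is the background ceiling of 3.61, the highest bacterial control value. The groups do not overlap in any of the 9 panels, and in Iigp1 all 3 EGFP-negative arrays lie under the ceiling.

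Among the guanylate-binding proteins, Gbp2, a prenylated member that assembles on pathogen vacuoles, read 6.68, 6.37 and 6.59 in the 3 EGFP-negative arrays and 8.65, 8.20 and 8.13 in the 3 EGFP-positive arrays (log2 expression). It rose by 1.77 (SE 0.17, 95% interval 1.37 to 2.17, 3.42-fold; limma adjusted p = 0.00050), and the groups were separated by 1.44 between their nearest arrays. Gbp6, encoded in the other guanylate-binding protein cluster, on chromosome 5, read 4.14, 4.96 and 4.43 against 6.76, 6.10 and 6.28. Its rise of 1.87 (SE 0.26, 3.65-fold; limma adjusted p = 0.0025) had the widest interval of the 9 genes, 1.24 to 2.50, and its EGFP-negative arrays spread more than those of the other members (SD 0.42).

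Gbp3 read 5.42, 5.69 and 5.68 without EGFP and 7.08, 7.25 and 6.70 with it. It rose by 1.41 (SE 0.16, 2.66-fold; limma adjusted p = 0.0012), with no EGFP-positive array within 1.01 of an EGFP-negative one. Gbp7, a member whose protein binds the NADPH oxidase of phagocytes, had a smaller difference. It read 10.17, 10.20 and 10.26 against 10.89, 10.70 and 10.63, a rise of 0.53 (SE 0.10, 95% interval 0.30 to 0.77, 1.45-fold; limma adjusted p = 0.0070). The 3 EGFP-negative arrays of Gbp7 were tightly grouped (SD 0.05), and the nearest EGFP-positive array was 0.37 higher.

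The 3 regulatory immunity-related GTPases rose to different extents. Irgm2 read 6.79, 6.81 and 6.96 in the EGFP-negative arrays against 8.24, 8.56 and 8.25, a rise of 1.50 (SE 0.12, 95% interval 1.21 to 1.79, 2.83-fold; limma adjusted p = 0.00027). Igtp, its neighbour with the closely similar promoter, read 8.15, 7.71 and 7.96 against 8.52, 8.68 and 8.70, a rise of 0.69 (SE 0.13, 95% interval 0.37 to 1.01, 1.61-fold; limma adjusted p = 0.0088). The intervals of Irgm2 and Igtp do not overlap, though the difference between the 2 rises was not itself tested. Irgm1 read 7.21, 7.14 and 7.18 in EGFP-negative arrays, a tight group (SD 0.03), and 8.30, 8.28 and 7.68 in EGFP-positive arrays. It rose by 0.91 (SE 0.18, 1.88-fold; limma adjusted p = 0.0099), and EGFP-positive replicate 3 lay well below the other EGFP-positive arrays, which gave the group an SD of 0.35.

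Of the effector-type members, Iigp1 was under the background ceiling in all 3 EGFP-negative arrays (3.15, 3.24 and 3.37) and above it in all EGFP-positive arrays (5.54, 5.13 and 5.09). With the EGFP-negative arrays set to the ceiling of 3.61 it was at least 3.12-fold higher, and the measured difference was 2.00 (SE 0.14, 95% interval 1.65 to 2.35; limma adjusted p = 0.00020). Ifi47, whose promoter window held no match, read 9.51, 9.53 and 9.65 against 10.23, 9.97 and 10.07. Its rise of 0.53 (SE 0.10, 95% interval 0.29 to 0.77, 1.44-fold; limma adjusted p = 0.0084) equalled that of Gbp7. Rises at least as large as those of Ifi47 and Gbp7 were measured in 13.6% and 13.4% of all genes.

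**Figure D3:**
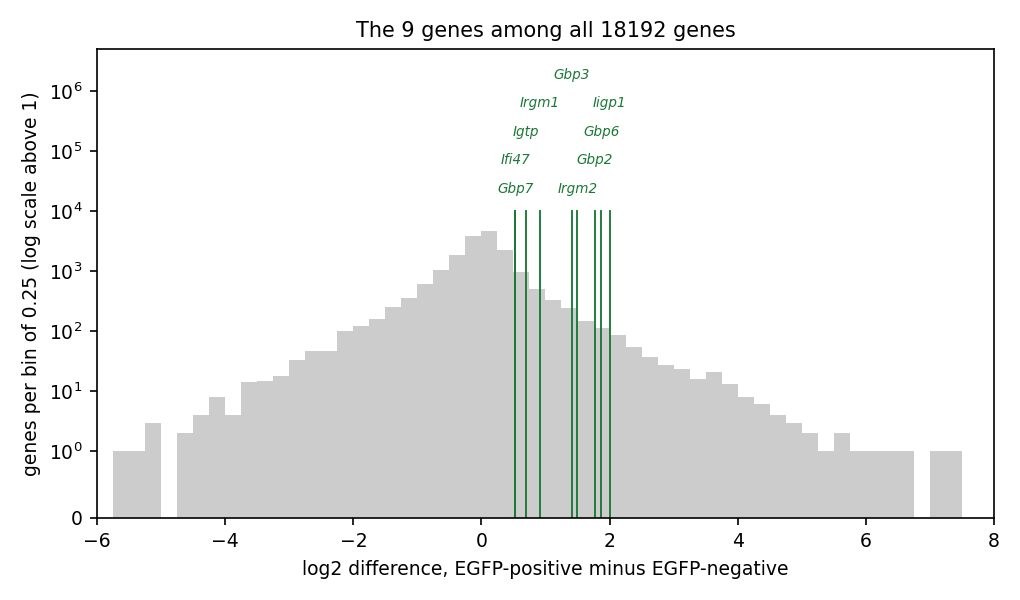
Number of genes (log scale above 1) by log2 difference, EGFP-positive minus EGFP-negative, over all 18192 genes, with the 9 GTPase genes marked by green lines. The 9 genes lie between 0.53 and 2.00, to the right of the centre of the distribution, whose median is 0.02.

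Within a group, the arrays kept no single order over the 9 genes. EGFP-positive replicate 1 was the highest of its group in 6 of the 9 genes and EGFP-positive replicate 3 the lowest in 5. EGFP-negative replicate 1 was the lowest of its group in 6 and EGFP-negative replicate 3 in 0. The SD of the EGFP-positive arrays exceeded that of the EGFP-negative arrays in 7 of 9 genes, as it did in 63.7% of all genes. The profiles most like each member over the 6 arrays, by root mean square difference between log2 values centred on each gene's own mean, were, for the 2 nearest genes of each member, those of genes outside the pathway and marker lists used here in 18 of 18 cases. These lists hold a small part of the 18192 genes, so most nearest genes would lie outside them in any case. The third nearest to Gbp7 was the inflammasome gene Aim2 (0.041), and the fourth nearest to Igtp was the B cell marker Cd79b (0.089). Closest to Gbp7 were Acadl (0.032) and Zcchc2 (0.040), to Ifi47 Selenow (0.033) and Dok1 (0.035), and to Irgm2 Ndufaf5 (0.048) and Cpne8 (0.064). For Igtp they were Mir99ahg (0.050) and Rab2b (0.066), for Irgm1 Sh3pxd2a (0.056) and Gphn (0.079), and for Iigp1 Rprm (0.090) and Fam189a2 (0.092). For Gbp2 they were Lncpint and Sec14l2 (0.11 each), for Gbp3 Usp53 (0.10) and Zfp53 (0.11), and for Gbp6 Tmem243 (0.081) and Gpr137b-ps (0.17). With 6 arrays in 2 groups this measure mostly reflects the size of the group difference.

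Other probe sets were available for 4 of the 9 genes. The second probe set of Gbp2, whose type may cross-bind similar transcripts, read 5.87 ± 0.21 (SD, n = 3) in EGFP-negative arrays and 8.08 ± 0.25 in EGFP-positive ones. That was a rise of 2.21 (SE 0.17; limma adjusted p = 0.00032 over all 45037 probe sets). The second probe set of Iigp1 rose by 1.49 (SE 0.24, limma adjusted p = 0.0056), again with all EGFP-negative arrays under the ceiling. The second probe sets of Gbp6 and Gbp7 did not pass. That of Gbp6 read 3.87 to 4.61 in EGFP-negative arrays and 5.53, 6.33 and 4.49 in the EGFP-positive ones, so the groups overlapped, and its difference was 1.29 (SE 0.46, 95% interval 0.17 to 2.41; limma adjusted p = 0.097). That of Gbp7 differed by 0.30 (SE 0.15, 95% interval -0.05 to 0.65; limma adjusted p = 0.21). In all, 11 of the 13 member probe sets were called higher, beside 11.6% of all probe sets. Binding of these probe sets to near-identical family members was not tested.

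**Figure D4:**
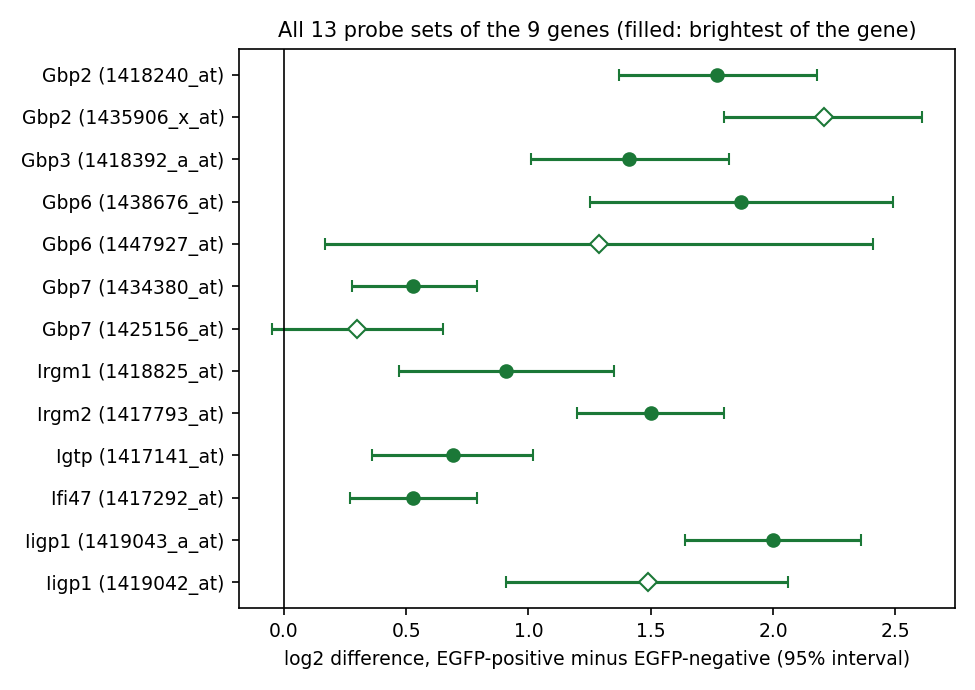
Log2 difference with 95% interval for all 13 probe sets of the 9 genes, filled circles for the brightest probe set of a gene and open diamonds for a second one. All 13 differences are above 0, and the interval of the second Gbp7 probe set includes 0.

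The rise did not extend to every relative of these genes. Of 14 further GTPases listed as relatives, 5 were measured by a probe set annotated to that gene alone. Of these, 1 was called higher and 1 lower, close to the shares over all genes (16.0% higher and 17.2% lower). Gbp8, encoded in the same chromosome 5 cluster as Gbp6, read 7.62, 7.42 and 7.60 in the EGFP-negative arrays against 5.27, 4.46 and 5.89, a fall of 2.34 on the log2 scale (SE 0.34; limma adjusted p = 0.0031). No EGFP-positive array of Gbp8 reached the EGFP-negative range. Mx1, the dynamin-like antiviral GTPase, read 7.06, 6.71 and 6.94 against 7.86, 7.46 and 8.17 and rose by 0.93 (limma adjusted p = 0.014), but without EGFP-negative replicate 2 its adjusted p was 0.051. Mx2 and Gbp2b lay under the ceiling in both groups. Promoter windows were found for 4 of the 14 relatives, and an ISRE-like match lay in all 4 and a GAS-like match in 3 of them. Over all 27025 genes with a window, 1079 held an ISRE-like match and 2582 a GAS-like match. Among the 5 measured relatives only Gbp2b had a window, with its ISRE-like match at bases -137 to -128. No window was therefore read for Gbp8 or Mx1. Irgc1, a relative known from the testis, differed by -0.32 (limma adjusted p = 0.10), and passed without EGFP-positive replicate 3 (-0.42, adjusted p = 0.032). Of 3 further relatives looked up after the values were seen, Gm4951 was 1.33 higher (SE 0.11, limma adjusted p = 0.00037), while Gm12185 differed by 0.32 and Irgq by -0.34.

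Of the interferon genes themselves, only Ifng, Ifnb1 and Ifna4 were on the list, and no type III interferon was. All of these had group means under the ceiling in both groups, and none passed. On EGFP-negative replicate 2 Ifng read 3.81, above the ceiling of 3.61. Of the 9 ligand and receptor genes, 4 were called higher and 1 lower (median 0.36), beside 16.0% and 17.2% of all genes. Both chains of the type I receptor were called higher, Ifnar1 by 0.51 (limma adjusted p = 0.0069) and Ifnar2 by 0.36 (0.022). The call of Ifnar2 was lost without EGFP-negative replicate 1 or 2 or EGFP-positive replicate 1 or 2, with an adjusted p of up to 0.082, and with the replicate block (0.073). Ifnlr1, the specific chain of the type III interferon receptor, read 4.07, 3.62 and 3.96 in the EGFP-negative arrays against 7.11, 7.12 and 7.10, a rise of 3.23 (SE 0.13; limma adjusted p = 3.4e-05). Its partner chain Il10rb rose by 0.48 (limma adjusted p = 0.011), though by 0.12 with the mean of its probe sets (adjusted p = 0.46). For the type II receptor, which responds to interferon-gamma, Ifngr1 was 0.29 lower on the log2 scale (-0.29, limma adjusted p = 0.046) and Ifngr2 differed by 0.32 (adjusted p = 0.13). The call of Ifngr1 was lost without each of the 6 arrays in turn, with adjusted p from 0.069 without EGFP-negative replicate 1 to 0.15 without EGFP-negative replicate 2.

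Of 14 measured JAK-STAT and interferon regulatory factor genes, 9 were called higher and 2 lower (median 0.40), beside 16.0% and 17.2% of all genes. Stat2 rose by 1.59 (7.49 ± 0.16 against 9.07 ± 0.10, SD, n = 3; limma adjusted p = 0.00018) and its partner Irf9 by 1.15 (limma adjusted p = 0.0077). Irf1, an activator of many GTPase genes, rose by 1.28 (9.09, 9.03 and 8.70 against 10.29, 10.02 and 10.33; limma adjusted p = 0.0010), and Nlrc5, the activator of MHC class I genes, rose by 0.81. Irf8, a factor of monocytes and dendritic cells, fell by 1.30 (8.48, 8.32 and 8.47 against 7.17, 7.05 and 7.13; limma adjusted p = 0.00015). Ciita, the activator of MHC class II genes, was -0.52 (limma adjusted p = 0.016), and its call was lost without EGFP-negative replicate 1 (0.061) or 2 (0.063).

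The antiviral genes were the list nearest to the GTPases in direction. Of 27 measured, 24 were called higher and 0 lower, with a median of 1.10, and Ifi35, Eif2ak2 and Isg20 did not pass. Rsad2, the antiviral enzyme viperin, rose from 8.43, 8.26 and 8.41 to 12.39, 12.33 and 12.29, a difference of 3.97 (limma adjusted p = 1.5e-05). Oas2 and Oasl2, of the oligoadenylate synthetase family, rose by 2.92 and 2.89. An ISRE-like match was found in the promoter windows of 12 of the 24 listed antiviral genes that had a window, beside 1079 of all 27025 genes with a window. Among interferon feedback inhibitors 2 of 10 were higher and 4 lower (median -0.13), beside 16.0% and 17.2% of all genes. Socs3 fell by 1.04, Ptpn11 fell by 0.55, and Socs1 was -0.35 (limma adjusted p = 0.019), a call lost without any 1 of the 3 EGFP-negative arrays (0.054 to 0.075), each of which left 2 genes of the list lower. Ptpn6 rose by 0.58 and Usp18, an inhibitor of type I signalling, by 0.75, the latter lost without EGFP-negative replicate 1 (0.057) or 2 (0.053).

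Of 14 measured antigen presentation genes known to respond to interferon-gamma, Psme1 (0.47) and Tapbp (0.40) were higher and 4 were lower (median 0.11), beside 16.0% higher and 17.2% lower of all genes. In that list 5 genes were called higher with eBayes trend and 4 with only the brighter genes tested. The MHC class II genes H2-Eb1, H2-Ab1 and H2-Aa fell by 1.04, 0.99 and 0.92, H2-Eb1 from 11.22, 11.28 and 11.29 to 10.26, 10.15 and 10.25. Inflammasome and cell death genes that act with guanylate-binding proteins were mostly higher, 8 of 13 measured, with 2 lower (median 0.54). They included Il18, a cytokine released by inflammasomes (3.11, from 4.89, 5.17 and 5.18 to 8.18, 8.18 and 8.21), Mefv, which encodes pyrin (1.53), and the nucleic acid sensor gene Zbp1 (1.24), which is also on the antiviral list. The cytokine gene Il1b fell by 0.78 and Naip2, which encodes a sensor of bacterial secretion systems, fell by 0.63. Of 16 autophagy genes, on whose conjugation machinery the immunity-related GTPases depend, 4 were higher and 0 lower (median 0.27), among them the kinase gene Ulk1 (1.20), Gabarapl1 (0.89) and the receptor gene Sqstm1 (0.46). That count rose to 10 higher and 2 lower with eBayes trend and to 9 and 1 with only the brighter genes tested.

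**Figure D5:**
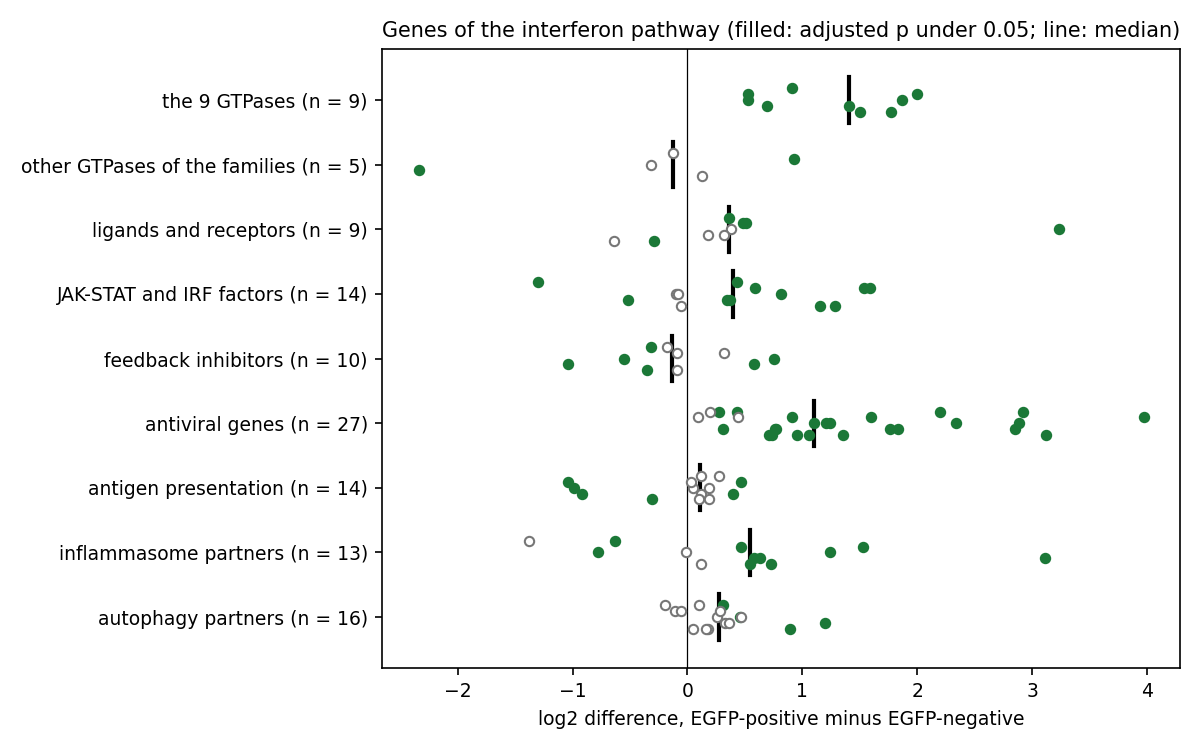
Log2 difference, EGFP-positive minus EGFP-negative, of each measured gene in the 9 GTPases and 8 lists of the interferon pathway; filled points passed an adjusted p under 0.05 and black lines are medians. The GTPases (median 1.41) and the antiviral genes (median 1.10) lie mostly to the right of 0, and Gbp8 is the lowest point (-2.34).

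Markers of several cell types moved with the same contrast, and their part in the results above was not tested. All 12 progenitor markers read above the ceiling in at least 1 group, and 5 of them were lower and 0 higher in EGFP-positive cells, with a summed level of 14.48 to 14.50 in EGFP-negative and 14.02 to 14.09 in EGFP-positive arrays (log2 of the summed linear values). Of 12 monocyte and macrophage markers, cells in which these GTPases are well known, 3 were higher and 6 lower (13.26 to 13.27 against 13.10 to 13.15). Of 11 dendritic cell markers 2 were higher and 4 lower (12.43 to 12.47 against 12.64 to 12.68), with Xcr1 and Cd209a under the ceiling in both groups. Of the 2 higher markers 1 was Bst2 (1.06), which is also on the antiviral list, and without it the other 10 summed to 12.09 to 12.16 against 11.99 to 12.04. Of 14 T and NK cell markers, the main sources of interferon-gamma, 1 was higher and 5 lower (12.69 to 12.72 against 10.47 to 10.58), and Cd3g, Ncr1 and Tcra were under the ceiling on all 6 arrays, as were both group means of Tbx21. Gzmb (-2.19) and Nkg7 (-3.59), which encode cytotoxic granule proteins, carried that summed level. Without them the other 12 markers summed to 8.59 to 8.79 against 8.77 to 9.09, with Cd3e at -2.02 and Eomes at 1.67. Neutrophil markers were lower in 10 of 11 cases and higher in 1, and erythroid markers higher in 7 and lower in 1 of 10. Mast cell markers were lower in 7 of 9 cases, and megakaryocyte markers higher in 5 and lower in 1 of 9. B cell markers were higher in 1 and lower in 2 of 9, and endothelial and stromal markers higher in 3 and lower in 2 of 10. Over all genes 16.0% were called higher and 17.2% lower, so small counts such as those of the B cell markers are near that share.

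Over the whole arrays, medians were 5.11 to 5.14, and Pearson's r between arrays was 0.995 within EGFP-negative, 0.989 within EGFP-positive and 0.968 to 0.969 between groups, across probe sets. The excess of 3′ over 5′ signal, a sign of RNA quality or amplification, was higher in EGFP-positive arrays for Actb (0.97 to 1.03 against 0.76 to 0.86) and Gapdh (1.03 to 1.10 against 0.80 to 0.84), and its part in the GTPase differences was not tested. Mecom passed at none of its 3 probe sets (brightest, 8.26, 8.17 and 8.35 against 8.20, 7.89 and 7.82; -0.29, limma adjusted p = 0.13 over genes). The labels do not say whether these probe sets match the vector's EVI1 sequence, so they do not check the group labels.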

How the data were processed

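Gene expression was measured on 6 arrays, 3 per group, with groups and replicate numbers taken from the sample titles. The authors deposited log2 values per probe set, made by RMA (background correction, quantile normalization and probe summary) per the submitters' processing notes, from RNA amplified with a 3′-priming kit per the labels' protocols. Quantile normalization hides a change in total RNA per cell. Scanner files were not used here.

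Of 45101 probe sets, 64 controls were removed, and GEO's platform annotation gave 1 gene for 34945. A gene was its brightest probe set (18192 genes). All 13 member probe sets matched RefSeq by Entrez identifier. Group differences came from limma 3.58.1 under R 4.3.3 (lmFit, eBayes, no covariate), two-sided, with Benjamini-Hochberg adjustment over all genes and a threshold of 0.05. With 3 against 3 arrays an exact permutation test cannot go below 0.1, so none was used, and the number of arrays limits the precision. The background ceiling, 3.61, is the highest value of 27 bacterial control probe sets. Folds with a group under it are lower bounds.

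The members, lists and rules were chosen with earlier results of these data known. The named genes are the 9 members, all measured relatives, the 3 rises and 3 falls of smallest p in each list, the signalling genes Irf1, Irf8, Irf9, Ifngr1, Ifngr2 and Socs1 (another is not reported here) and the 2 nearest profiles of each member. Genes named beyond that were chosen after their values were seen. The fit was tested on simulated data. Alternatives are in the closing section. Same-numbered arrays did not deviate together, which does not exclude a pairing.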

Additional observations from a re-analysis of the deposited data

How the results depend on the processing

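Each of the 9 GTPase genes kept its direction and its call in every alternative in which it was tested, 141 of 141 values, with adjusted p (limma) up to 0.039 and differences under each left-out array from 0.46 to 0.59 for Gbp7 and Ifi47 up to 1.68 to 2.10 for Gbp6. The alternatives were a replicate block, array weights, eBayes with trend or robust, equal array medians, another round of quantile normalization, testing the brighter genes alone, the most variable probe set, the mean over probe sets, dropping each array, and, added after the data were seen, only genes with a group mean above the background ceiling. Testing the brighter genes left out Gbp3, Gbp6 and Iigp1, so 6 of 6 remaining members were called. Iigp1 passed the ceiling filter only through its EGFP-positive mean (5.25, against 3.25 in EGFP-negative arrays). Its call under that filter therefore adds no support. Gbp3, Irgm1, Irgm2, Igtp and Ifi47 have 1 probe set each, so the alternatives by probe set left their differences unchanged. The most variable probe set was picked over all 6 arrays, so that choice favours a large group difference. These values therefore add little support. The number of genes called over all genes was 6045, between 4432 and 5664 with 1 array left out, and 4900 with the replicate block.

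The labels do not say whether same-numbered samples belong together. Deviations of same-numbered arrays from their group means correlated at -0.01 to 0.01 across genes, and not every array correlated best with its own number. With so few arrays per group these correlations cannot exclude a pairing. With the replicate block 9 of 9 members were called, Ifngr1 (adjusted p = 0.11), Ifnar2 (0.073) and Socs1 (0.068) lost their calls, and Il10rb reached 0.050. The count of ligand and receptor genes called was then 2 higher and 0 lower, and 2 feedback inhibitors were lower. Ifngr1 also missed the threshold with another quantile normalization, equal medians, weighted arrays or the most variable probe set, and Socs1 with eBayes trend. Autophagy genes called higher numbered 8 with the mean over probe sets and 7 above the ceiling. Lists and named list genes were put through these alternatives after the data were seen. The fall of Gbp8 held in each. Arrays give no read depth. Iigp1 in EGFP-negative cells lay at background, so its rise has a lower bound only.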
